A study of Schizosaccharomyces pombe with 4 samples.

Results

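The 8 hexose transporter genes of fission yeast (*Schizosaccharomyces pombe*), ght1 to ght8, were followed in cells with and without the histone methyltransferase gene set2. They were taken from the deposited expression table by their systematic names. These are SPCC548.07c (ght1), SPBC4B4.08 (ght2), SPAC1F8.01 (ght3), SPBC1683.08 (ght4), SPCC1235.14 (ght5), SPCC1235.13 (ght6), SPBC1348.14c (ght7) and SPCC548.06c (ght8). The table holds 6986 genes, and all 8 members lay above its lowest value in all 4 libraries. There were 2 libraries of a set2 deletion strain (SPKK1227, genotype set2d) and 2 of a wild-type strain (WT972, here WT). Both strains were grown asynchronously to log phase in YEA medium at 30 °C, and total RNA was sequenced on an Illumina HiSeq instrument. Each genotype is represented by 1 strain, and no source used here gives the glucose content of the medium. Values were normalized read counts per gene, deposited as log2 values, and none lay below 10 normalized counts.

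The set2 transcript itself had 2257 and 1448 normalized counts in set2d replicates 1 and 2, against 10503 and 8665 in WT replicates 1 and 2. Both set2d libraries lay far below both WT libraries, and which bases of the gene were deleted is not stated. Set2 methylates lysine 36 of histone H3 over transcribed genes. Whether the replicates were independent cultures is not stated, so some or all of the spread among the 4 libraries may be technical. Each limma p-value rests on that spread, with 2 residual degrees of freedom. It also rests on a variance estimate shared across genes, with 6.16 prior degrees of freedom. The RNA came from bulk cultures, so a lower level in each cell and fewer cells with the transcript cannot be told apart.

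The Ght proteins are sugar transporters of the major facilitator superfamily, a family that carries hexoses across the plasma membrane ahead of glycolysis. Paralogues differ in substrate and affinity. Ght5 is a high-affinity glucose transporter that fission yeast needs when glucose is scarce, Ght3 transports gluconate, and Ght6 has been reported to prefer fructose. The ght5 gene is repressed through the zinc finger protein Scr1 when glucose is plentiful. The TORC2 kinase complex keeps Ght5 at the cell surface by counteracting the arrestin-related protein Aly3.

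The members are close relatives, and no source used here says how reads that match several genes were counted. Over the 28 pairs of coding sequences in the ASM294v3 assembly, the identity of aligned bases had a median of 70.9% and a lowest value of 63.7%. The closest pair was ght5 and ght8, with 1510 of 1638 aligned bases identical, or 92.2%. The next was ght3 and ght4 at 81.8%. The longest stretch without a mismatch was 248 bases between ght5 and ght8, 240 bases between ght3 and ght4, and 182 bases between ght1 and ght5. Of all 50-base windows in the coding sequence, 37.4% in ght5 and 38.2% in ght8 occurred elsewhere in the genome. The shares were 13.1% in ght3, 13.05% in ght4, 9.48% in ght1 and 2.5% in ght6, and no window of ght2 or ght7 recurred. The division of reads between ght5 and ght8 is therefore less certain than the level of ght2 or ght7.

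Of the 8 genes, 3 were higher and 1 was lower in set2d (limma, Benjamini-Hochberg adjusted p under 0.05). Across the 6633 genes tested 14.3% were called, 11.6% as higher and 2.77% as lower. Of these, 767 were higher and 184 lower, a balance that became 574 and 275 under quantile normalization. The median log2 change was 0.70 over the 8 members and 0.01 over all genes tested. Both set2d libraries lay above both WT libraries for 5 members and below them for 2, and the groups overlapped for ght5. Over all tested genes the libraries of the groups did not overlap for 57.7%. The genes that passed were ght3, ght4, ght7 and ght8. At an unadjusted p under 0.05, 6 members differed, the further ones being ght1 and ght2. The share of all tested genes at that threshold is not given here, so this count has no background to be read against.

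The order of the members by level differed between the genotypes at both ends. Levels of different genes were compared per kb of coding sequence. In set2d, ght5 and ght8 stood highest and their ranges overlapped, at 37266 to 65454 normalized counts per kb for ght5 and 38847 to 54587 for ght8. The gene ght2 followed at 15324 to 18631. Next came ght6 and ght4, which overlapped, then ght7 and ght3, which also overlapped, and ght1 was lowest at 458 to 559. The place of ght4 depends on the length used. Per annotated gene length its share of the family total was 2.14% and 1.52% in set2d replicates 1 and 2. The shares were then 4.75% and 2.65% for ght6, and 2.48% and 1.23% for ght7. In WT, ght8 stood alone at the top with 94002 to 123790 normalized counts per kb. In WT the ranges of ght5 (22053 to 41904) and ght2 (21195 to 22595) overlapped, and ght6, ght4, ght1, ght3 and ght7 followed without overlap. The lowest WT level was that of ght7, at 64.9 to 67.6 normalized counts per kb. The members thus covered a narrower span of levels in set2d than in WT.

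**Figure D1:**
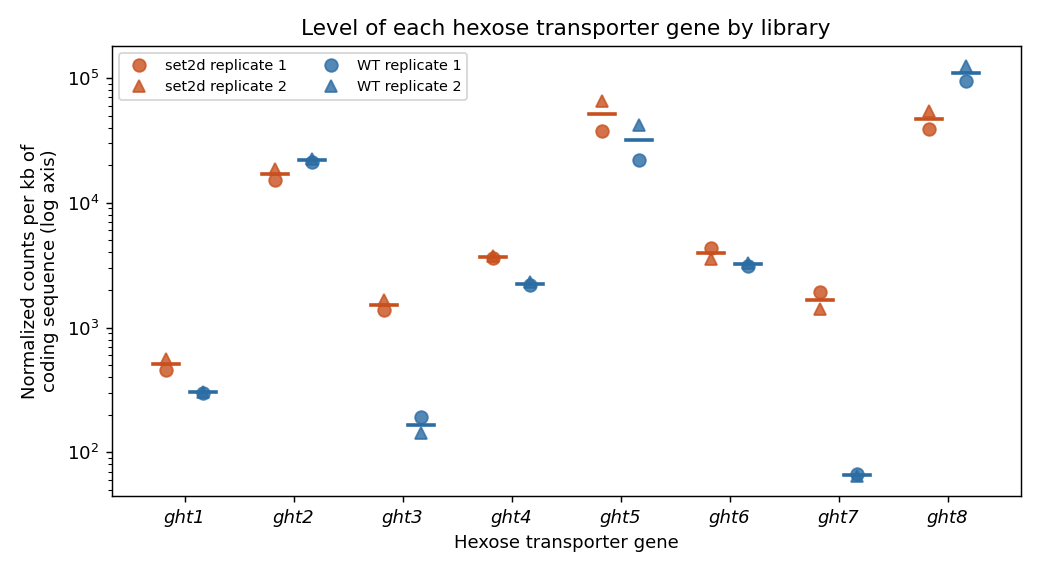
Level of each hexose transporter gene in each library, in normalized counts per kb of coding sequence on a log axis; orange marks are set2d and blue marks WT, circles are replicate 1, triangles replicate 2 and bars group means. The ght8 points are lower in set2d than in WT, while those of ght3 and ght7 are far higher in set2d.

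The gene ght8, annotated as a hexose transporter, fell in set2d. It had 63864 and 89742 normalized counts in set2d replicates 1 and 2, against 154539 and 203510 in WT replicates 1 and 2. The higher of the set2d libraries lay well below the lower of the WT libraries. The log2 change was -1.23 (SE 0.19, limma adjusted p = 0.0044), which is 2.34-fold lower in set2d. Among all genes of the table ordered by normalized counts, ght8 ranked 339 and 247 in set2d, against 148 and 94 in WT. The call was lost without set2d replicate 1, where the log2 change was -0.98 (limma adjusted p = 0.0758).

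The gene ght5, for the high-affinity glucose transporter, had 61153 and 107409 normalized counts in set2d replicates 1 and 2, against 36188 and 68765 in WT replicates 1 and 2. The lower set2d library lay below the higher WT library, so the groups overlapped. The log2 change of 0.70 (SE 0.32) did not pass (limma adjusted p = 0.199). Within libraries of the same number the log2 change was 0.76 for number 1 and 0.64 for number 2. The sample titles carry a common prefix for each number, which is left unexplained there. Replicate 2 exceeded replicate 1 for ght5 by 0.81 on the log2 scale in set2d and by 0.93 in WT. Among 5578 genes with a mean of at least 1000 normalized counts, the median absolute difference between replicates was 0.19 in set2d and 0.11 in WT. Only 1.13% of these genes in set2d and 0.233% in WT differed between replicates by as much as ght5. A single library therefore moved the value of ght5. It was 0.29 without set2d replicate 2, 1.11 without set2d replicate 1, 0.24 without WT replicate 1 and 1.16 without WT replicate 2, and it passed in the last case (limma adjusted p = 0.00179).

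As shares of the family total, ght8 and ght5 were the largest in set2d, while ght8 alone made up most of the total in WT. The share of ght8 was 37.9% and 36.7% in set2d replicates 1 and 2, against 66.0% and 63.9% in WT replicates 1 and 2. The mean was 37.3% ± 0.861 in set2d and 65.0% ± 1.45 in WT (SD, n = 2 each), a difference of -27.7 percentage points. The 2 libraries of each genotype agreed in this share although their ght8 levels differed. The share of ght5 was 36.3% and 43.9% in set2d, against 15.5% and 21.6% in WT. Its mean was 40.1% ± 5.38 in set2d and 18.5% ± 4.35 in WT (SD, n = 2 each), and the groups did not overlap. The shares of a library are parts of the same total, so a lower ght8 count alone raises the other shares. The level of ght5 itself overlapped between the groups. Which of ght5 and ght8 was larger in set2d depended on the measure. Per annotated gene length ght5 held 39.9% and 47.9% in set2d, against 34.2% and 32.9% for ght8. Per kb of coding sequence the differences between the genotypes were -27.6 percentage points for ght8 and 21.5 for ght5. With ght6 left out of the family they were -27.7 and 22.5, an alternative chosen after seeing the data. No p-value is given for a share, since the members were chosen as a set.

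**Figure D2:**
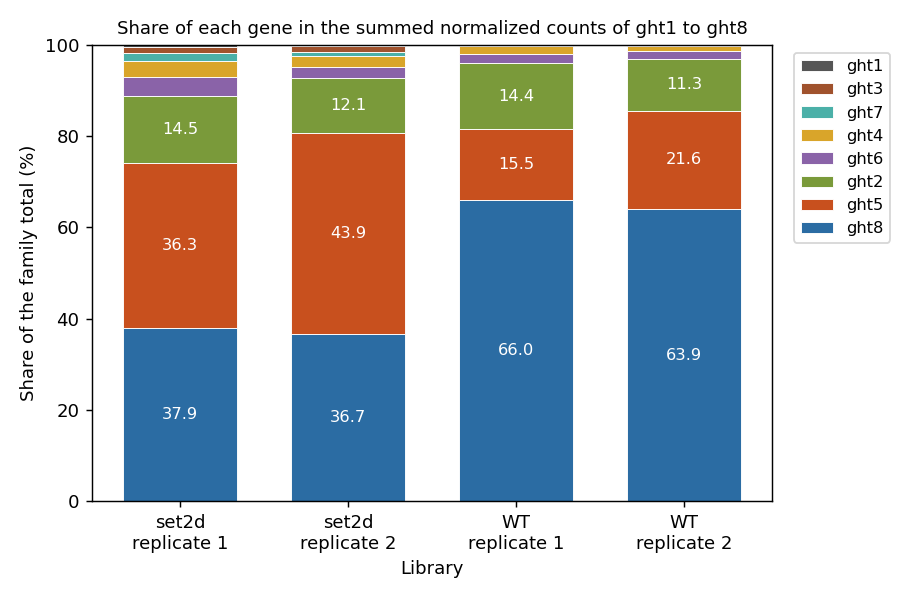
Share in percent of each hexose transporter gene in the summed normalized counts of ght1 to ght8, stacked by library, with set2d libraries on the left and WT libraries on the right. The share of ght8 is 37.9% and 36.7% in set2d and 66.0% and 63.9% in WT, and that of ght5 is 36.3% and 43.9% in set2d and 15.5% and 21.6% in WT.

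The ratio of ght5 to ght8, taken from the same values as these shares, carried the same contrast. Per kb of coding sequence it was 0.959 and 1.20 in set2d replicates 1 and 2, against 0.235 and 0.339 in WT replicates 1 and 2. The difference was 1.93 on the log2 scale, or 3.81-fold, with 2.03 for number 1 and 1.82 for number 2. All values in set2d lay above those in WT. This ratio was chosen after seeing the data, and an exact permutation test of 2 against 2 libraries cannot go below p = 0.33. The pair shares 92.2% of its aligned bases, and the share of reads assigned to the wrong copy was not tested.

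The gene ght2, annotated as a glucose and fructose symporter, held the third-highest share in every library. Its share was 14.5% and 12.1% in set2d, against 14.4% and 11.3% in WT. These ranges overlapped. The level of ght2 was 24457 and 29734 normalized counts in set2d replicates 1 and 2, against 33828 and 36061 in WT replicates 1 and 2, so both set2d libraries were lower. The log2 change of -0.37 (SE 0.13) did not pass (limma adjusted p = 0.0917). It ranged from -0.51 without set2d replicate 2 to -0.23 without set2d replicate 1, and it passed under quantile normalization at -0.47 (limma adjusted p = 0.0443).

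The family total was 168597 and 244780 normalized counts in set2d replicates 1 and 2, against 234183 and 318313 in WT replicates 1 and 2. These ranges overlapped. The mean was 206689 ± 53869 in set2d and 276248 ± 59489 in WT (SD, n = 2 each). Within number 1 the total was lower in set2d by a log2 change of -0.47, and within number 2 by -0.38. The pooled log2 difference of -0.43 depended on single libraries, at -0.16 without set2d replicate 1, -0.70 without set2d replicate 2, -0.65 without WT replicate 1 and -0.20 without WT replicate 2. Together ght5, ght8 and ght2 made up 88.7% and 92.7% of the total in set2d, against 95.9% and 96.9% in WT. The other 5 members held 11.3% and 7.31% in set2d, against 4.11% and 3.13% in WT.

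The largest changes among the members were in ght7 and ght3, which are weakly expressed in WT and lie near chromosome ends. The gene ght7 is the member nearest to an end, within the outermost 50 kb of the left arm of chromosome II. It had 3005 and 2185 normalized counts in set2d replicates 1 and 2, against 105 and 101 in WT replicates 1 and 2. The log2 change was 4.63 (SE 0.26, limma adjusted p = 4.56e-05), or 24.8-fold higher in set2d. Both WT libraries lay close together and far below both set2d libraries. The gene ght3, for the gluconate transporter, lies between 50 and 100 kb inside the left end of chromosome I. It had 2297 and 2779 normalized counts in set2d, against 319 and 238 in WT. Its log2 change was 3.20 (SE 0.25, limma adjusted p = 0.000184), or 9.17-fold higher in set2d. The groups were again well apart. Both calls held without each of the 4 libraries in turn. Ordered by normalized counts among all genes of the table, ght7 ranked 4569 and 5009 in set2d, against 6268 and 6278 in WT, and ght3 ranked 4916 and 4710 in set2d, against 5989 and 6064 in WT. Both thus stayed in the lower part of the table. The share of ght7 in the family total was 1.78% and 0.893% in set2d, against 0.045% and 0.0317% in WT. For ght3 it was 1.36% and 1.14% in set2d, against 0.136% and 0.0747% in WT. The share of the pair together was 3.14% and 2.03% in set2d, against 0.181% and 0.106% in WT.

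The gene ght4 was higher in set2d by a smaller amount. It had 6042 and 6275 normalized counts in set2d replicates 1 and 2, against 3670 and 3864 in WT replicates 1 and 2. The libraries of each genotype lay close together and the groups were well apart. The log2 change was 0.71 (SE 0.13, limma adjusted p = 0.0104), with 0.72 for number 1 and 0.70 for number 2. Its share of the family total was 3.58% and 2.56% in set2d, against 1.57% and 1.21% in WT. The log2 change held between 0.67 and 0.75 without each library in turn, but the call did not. It was lost without set2d replicate 1 at 0.74 (limma adjusted p = 0.0652), without set2d replicate 2 at 0.68 (0.0654), without WT replicate 1 at 0.67 (0.101) and without WT replicate 2 at 0.75 (0.0684). The annotated ght4 gene is long, at 3799 bases for 1674 coding bases, and 3 non-coding RNAs of the table overlap it. On the opposite strand SPNCRNA.1319 covers 25.1% of ght4 and had 3131 and 2716 normalized counts in set2d, against 1801 and 1755 in WT, a log2 change of 0.71 (limma adjusted p = 0.0277). In the fits with a library left out it did not pass, whichever library that was. On the opposite strand SPNCRNA.1318 covers 22.9% of ght4 and had a log2 change of 0.37 (limma adjusted p = 0.21). On the same strand SPNCRNA.298 covers 19.7% and had a log2 change of -0.33 (limma adjusted p = 0.506). The strand setting of the authors' counting is not given, so reads of ght4 and of these RNAs cannot be told apart where they overlap.

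**Figure D3:**
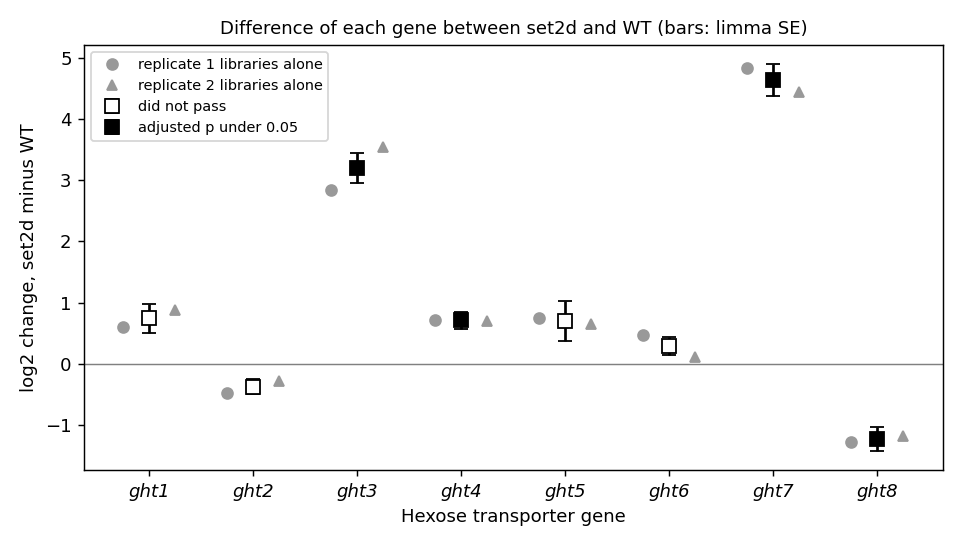
log2 change of each hexose transporter gene, set2d minus WT; squares are limma estimates with their standard errors, filled where the adjusted p is under 0.05, and grey circles and triangles are the differences within replicates 1 and within replicates 2. The changes run from -1.23 for ght8 to 4.63 for ght7, and both grey marks lie on the same side of 0 as the square for all 8 genes.

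The gene ght1, annotated as a high-affinity glucose symporter, had the lowest level per kb of the members in set2d. It had 767 and 935 normalized counts in set2d replicates 1 and 2, against 503 and 509 in WT replicates 1 and 2. Both set2d libraries were above both WT libraries. The log2 change was 0.74 (SE 0.23) and did not pass (limma adjusted p = 0.074). It passed by limma without a mean-variance trend (adjusted p = 0.0474). Its share of the family total was 0.455% and 0.382% in set2d, against 0.215% and 0.16% in WT, the smallest in set2d of any member. The non-coding RNA SPNCRNA.1121 overlaps 25.1% of ght1 on the opposite strand and had 157 and 199 normalized counts in set2d, against 94.5 and 126 in WT, a log2 change of 0.70 (limma adjusted p = 0.222). The ratio of ght1 to its neighbour ght8, per kb of coding sequence, was 0.0118 and 0.0102 in set2d, against 0.0032 and 0.00246 in WT, a difference of 1.97 on the log2 scale. An exact permutation test with 2 libraries per group cannot go below p = 0.33 for it.

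The gene ght6, annotated as a glucose and fructose symporter, could not be separated from an opposite-strand transcript. SPNCRNA.1118 covers 100% of ght6 and had 7015 and 5717 normalized counts in set2d replicates 1 and 2, against 5030 and 5270 in WT replicates 1 and 2. The values deposited for ght6 itself were 7012 and 5721 in set2d, against 5030 and 5265 in WT. The values of the pair were nearly equal in every library, so reads of the gene and of the opposite-strand RNA cannot be told apart. The log2 change of ght6 was 0.30 (SE 0.15) and did not pass (limma adjusted p = 0.225). It was 0.48 for number 1 and 0.12 for number 2, and 0.15 without set2d replicate 1. Its share of the family total was 4.16% and 2.34% in set2d, against 2.15% and 1.65% in WT. The ratio of ght5 to ght6 per kb was 8.55 and 18.4 in set2d, against 7.05 and 12.8 in WT. These ranges overlapped. Within libraries of the same number the log2 difference of this ratio was 0.28 for number 1 and 0.52 for number 2. The sign of the pooled difference turned without set2d replicate 2, at -0.15, and without WT replicate 1, at -0.03.

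The 8 genes sit at 5 places in the genome, and the counts of higher genes around them are given for each place. Within 20 kb of the start of ght7, 10 of 12 other tested genes were higher in set2d, with a median log2 change of 3.11. Within 20 kb of ght3, 12 of 19 were higher, with a median of 1.85. Around ght4, 9 of 23 were higher, with a median of 0.46, and around ght2 3 of 19 were higher, with a median of 0.03. None was lower at these 4 places. At the fifth place, between 200 and 250 kb inside the left end of chromosome III, lie ght6, ght5, ght8 and ght1 in this order. Within 20 kb of ght5 and of ght6, 0 of 15 and 0 of 19 other genes passed. Within 20 kb of ght8, 2 of 13 others were higher and none lower, and around ght1 2 of 13 were higher and 1 lower. These 4 windows overlap and hold some of the same genes. Some genes counted here lie at almost the same place and had nearly equal values. Examples are eno102 at 3.05 and SPNCRNA.1302 at 3.03 near ght7, and SPNCRNA.604 and SPNCRNA.139, both at 1.86, near ght3. The strand setting is not given, so such genes may hold the same reads and be counted more than once.

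At the same distance from the same end, ght7 and ght3 stood among the larger increases. In the outermost 50 kb of the left arm of chromosome II, 9 of 10 other tested genes were higher, with a median log2 change of 3.33, and 2 of the 10 had a larger value than ght7. Between 50 and 100 kb inside the left end of chromosome I, 15 of 25 others were higher, with a median of 1.21, and 1 of the 25 had a larger value than ght3. Between 150 and 200 kb inside the left end of II, 8 of 32 others were higher, with a median of 0.09, and 8 had a larger value than ght4. Between 200 and 250 kb inside the left end of III, 2 of 18 others were higher and 1 lower, and 1 of the 18 had a lower value than ght8. The gene ght2 lies more than 300 kb from either end of II, where 189 of 2097 others, or 9.01%, were higher and 66 were lower. In these counts too, overlapping genes may hold the same reads.

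Among the nearest coding genes, those on both sides of ght7 and of ght4 passed, and those beside ght3 did not. Beside ght7, SPBPB8B6.02c, annotated for urea transport, had 1978 and 1626 normalized counts in set2d replicates 1 and 2, against 82.2 and 37.8 in WT replicates 1 and 2 (log2 change 5.01, limma adjusted p = 0.000185). On its other side SPBC1348.12, annotated as a DNA-binding transcription factor, changed by 2.46 (limma adjusted p = 0.000771). Beside ght4, the maltase gene mal1 changed by 0.65 (limma adjusted p = 0.0396) and the ferric reductase gene frp1 by 0.86 (limma adjusted p = 0.0379). Of mal1, 40.8% is overlapped on the opposite strand. The call of mal1 was lost in 3 of the 4 fits without a library, the exception being that without WT replicate 2, where its value was 0.87, and its lowest value was 0.44 without WT replicate 1. The call of frp1 was lost in all 4, with values of 0.69 to 1.03. Both coding neighbours of ght3 were almost silent. The value of SPAPJ695.01c was 0.91 (limma adjusted p = 0.412). On the other side shu1, for a haem receptor, had 21.2 and 13.7 normalized counts in set2d, against 11.05 and 10 in WT, where 10 is the lowest value of the table, and its log2 change was 0.70 (limma adjusted p = 0.424).

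On chromosome III the coding neighbour of ght1 away from ght8, the transporter gene SPCC1529.01, had 8412 and 7883 normalized counts in set2d replicates 1 and 2, against 4216 and 3872 in WT replicates 1 and 2 (log2 change 1.01, limma adjusted p = 0.00199). On the other side of ght8, the ubiquitin ligase gene dbl5, with 97.6% of it overlapped on the opposite strand, had a log2 change of 0.24 (limma adjusted p = 0.227). The decrease of ght8 thus stood between neighbours with positive values. The gene dga1, for a diacylglycerol acyltransferase next to ght5, had a value of -0.30 (limma adjusted p = 0.122), and SPCC1235.18 on the other side of ght5 one of -0.29 (limma adjusted p = 0.467). On one side of ght6, mug146 had a value of -1.32 that did not pass (limma adjusted p = 0.0653), with both set2d libraries below both WT libraries. On the other side SPCC1235.17 had a value of -0.11 (limma adjusted p = 0.778). The neighbours of ght2, usp102 and prp39, had values of 0.03 and -0.03 (limma adjusted p = 0.928 and 0.874), and 95.5% of usp102 is overlapped on the opposite strand.

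**Figure D4:**
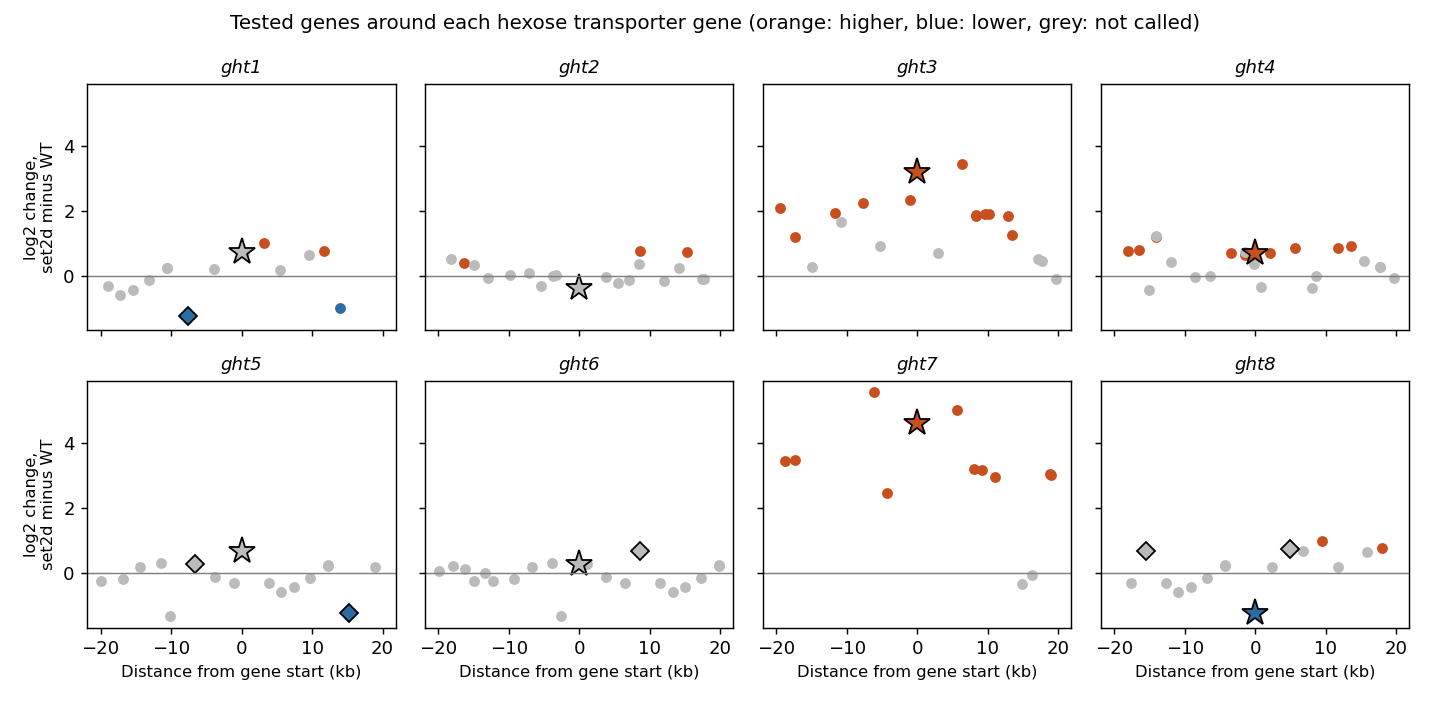
log2 change, set2d minus WT, of every tested gene within 20 kb of the start of each hexose transporter gene, against the distance of the gene's midpoint along the chromosome in kb; stars are the named member, diamonds other members and circles other genes. Most genes around ght7 and ght3 are higher in set2d, while ght8, at -1.23, is below all other genes of its own window.

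The gene with the 4-library pattern closest to each member was found by the largest difference between their deviations from the gene mean on the log2 scale. With 4 libraries many genes share a pattern, so these are descriptions. For ght8 it was mug146, the coding gene next to ght6, with 48.9 and 77.1 normalized counts in set2d replicates 1 and 2, against 126 and 186 in WT replicates 1 and 2, and a largest difference of 0.13. For ght5 it was the non-coding RNA SPNCRNA.264 on chromosome I at 0.02, and for ght6 the overlapping SPNCRNA.1118 at 0.0014. For ght3 it was the alpha-galactosidase gene mel1 at 0.11, which lies 50 to 100 kb inside the other end of chromosome I from ght3. For ght7 it was SPBPB2B2.08 at 0.29, which lies 50 to 100 kb inside the other end of chromosome II from ght7. For ght1 it was pho841, for ght2 ish1 and for ght4 mug126, at 0.03, 0.03 and 0.04.

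Genes that regulate or follow hexose uptake were counted in the same fit, in which 14.3% of all genes tested passed. Counts at an unadjusted p under 0.05 have no such share over all genes beside them. Of 11 genes for glucose sensing and protein kinase A signalling 0 passed by limma, also 0 by limma without a trend, with 4 at an unadjusted p under 0.05, and 1 was higher without set2d replicate 2. The median over these genes was -0.07 on the log2 scale, and the largest values were -0.52 for the glucose receptor gene git3 and -0.51 for the kinase gene pka1. Of 10 regulators of glucose repression 0 passed, also 0 by limma without a trend, with 3 at an unadjusted p under 0.05 and a median of -0.16, and 1 was lower under quantile normalization. Among these scr1, the repressor gene named above, had 4002 ± 479 normalized counts in set2d and 5214 ± 525 in WT (SD, n = 2 each), a log2 change of -0.38 (limma adjusted p = 0.154). The value of ssp1, for a kinase upstream of AMPK, was -0.37 (limma adjusted p = 0.0825). Of 12 genes for transporter localization 1 was higher, with a median of -0.15. This was the arrestin-related gene any1 at 0.50 (limma adjusted p = 0.0221), a call lost without any one library, by limma without a trend and under quantile normalization. The log2 change of aly3 was -0.20 (limma adjusted p = 0.315).

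Downstream of uptake, 1 of 13 genes for hexose phosphorylation and glycolysis was higher, with a median of -0.09. This was the enolase gene eno102, 50 to 100 kb inside an end of chromosome II and with 79.2% of it overlapped on the opposite strand, at 3.05 (limma adjusted p = 4.52e-05). The hexokinase genes hxk1 and hxk2 had values of -0.16 and -0.18 (limma adjusted p = 0.419 and 0.386). The largest decrease of this list, -0.42 for gpd3, did not pass (limma adjusted p = 0.0587). Under quantile normalization 1 gene of the list was lower, and under median centring also 1. Of 6 genes for gluconate use and the pentose phosphate pathway 1 was higher, the glucose-6-phosphate dehydrogenase gene zwf1 at 0.53 (limma adjusted p = 0.0219). The gluconokinase gene idn1, with 98.3% of it overlapped on the opposite strand, had a value of -0.06 (limma adjusted p = 0.764). The call of zwf1 was lost without any library but WT replicate 2. Among 9 genes listed here as repressed by glucose, 2 rose and 2 fell, and the median was 0.07. The response of the listed genes to glucose was not tested. The higher ones were the alcohol dehydrogenase gene adh4 at 1.47 and the dihydroxyacetone kinase gene dak2 at 1.21 (limma adjusted p = 0.000268 and 0.00757), of which dak2 passed only without WT replicate 1 among the fits with a library left out. The gene dak2 lies within 20 kb of ght3 and eno102 within 20 kb of ght7, and both were already counted there as higher. The lower ones of the list were the malic enzyme gene mae2 at -1.20 (limma adjusted p = 0.00361) and gut2 at -0.83 (limma adjusted p = 0.00286). The gene gut2, for the mitochondrial glycerol-3-phosphate dehydrogenase, is wholly overlapped on the opposite strand. The fructose-1,6-bisphosphatase gene fbp1 had a value of 0.07 (limma adjusted p = 0.846) and the invertase gene inv1 one of 0.31 (limma adjusted p = 0.295). Like gut2, fbp1 is wholly overlapped on the opposite strand, so its value may include reads of another transcript. In WT replicates 1 and 2 mae2 had 236010 and 238170 normalized counts, against 1910 and 1724 for fbp1. Of the other called genes of the list, adh4 and gut2 also lay above fbp1 in WT, with means of 14327 and 12767, and dak2 lay below it at 684. Such levels do not show whether a gene is repressed by glucose, so whether mae2 belongs in this list was not tested. Of 5 other sugar and polyol transporter genes 1 was lower, the inositol transporter gene itr1 at -0.48 (limma adjusted p = 0.0232), a call lost without any one library. Of 10 stress response genes 2 were higher, the heat shock genes hsp16 at 1.17 and hsp104 at 0.82, and 2 lower, gpd1 at -0.64 and gpx1 at -0.45. The largest decrease of this list, -0.93 for hsp9, did not pass (limma adjusted p = 0.073). The calls of gpd1 and gpx1 were lost without any one library and those of hsp16 and hsp104 without set2d replicate 1, where hsp16 was at 0.80. By limma without a trend, without a filter on low values or with values raised to 50, 0 genes passed in the lists of any1, zwf1, itr1 and the stress genes. The part of stress in the transporter values was not tested.

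**Figure D5:**
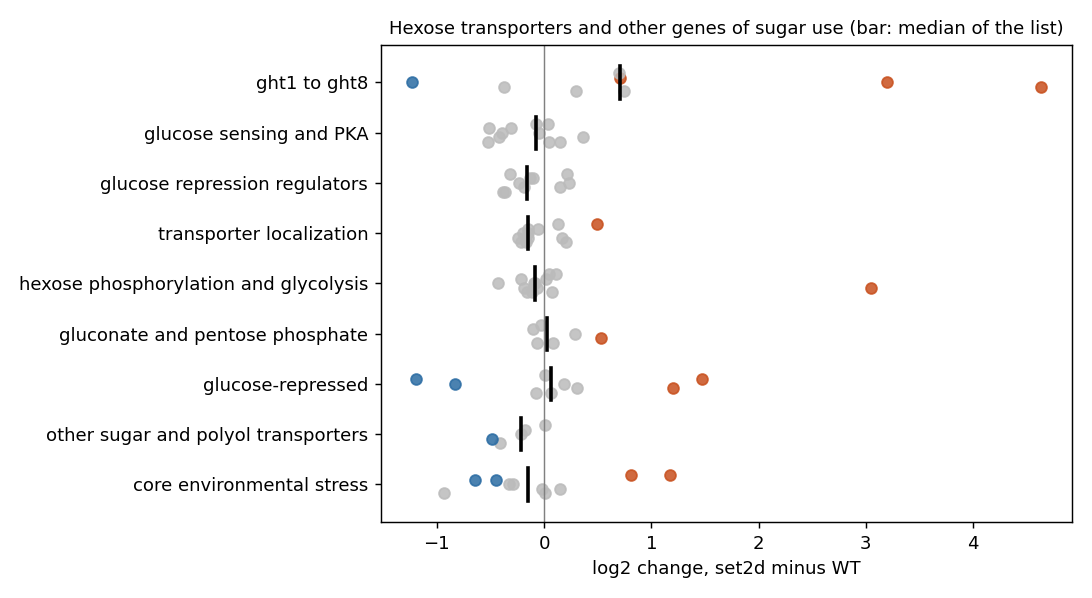
log2 change, set2d minus WT, of ght1 to ght8 (top) and of 8 lists of genes for sugar sensing, sugar use and stress; each point is a gene, orange where higher, blue where lower and grey where not called, and black bars are list medians. The median is 0.70 for the transporters and lies between -0.21 and 0.07 for the other lists.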

How the data were processed

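Total RNA was sequenced in 2 libraries of set2d and 2 of WT, and 1 table of the whole series was deposited. The tools STAR 2.5.4b and featureCounts 1.5.0-p1 and the build ASM294v2 are named, with no role, in the submitters' processing notes. No source used here states the normalization, the annotation or the strand setting. The deposited values are log2 normalized counts, floored at 10 in every library. In set2d replicate 1, 100% of distinct values under 400 were whole multiples of 1.06 normalized counts within 0.02 of a step, while in the other libraries 36.6% to 52% fitted any single step, so whole reads were not recovered there and the depth behind each value is unknown. Median normalized counts over genes were 5347 and 5518 in set2d replicates 1 and 2, and 5175 and 5050 in WT replicates 1 and 2. Precision is limited by the 2 libraries per group.

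Of 6986 genes, the 6633 with values over the floor in 2 or more libraries entered a two-sided limma test (version 3.58.1, R 4.3.3) with a mean-variance trend, on the log2 values as deposited. The p-values were adjusted by Benjamini-Hochberg across those genes, with a threshold of 0.05. The procedure was tried on simulated data with independent noise in each library. These data leave out the correlation between same-numbered libraries that is given below. Means ± SD are of normalized counts. The design named no pseudocount, and none was added in the main fit. Of 6986 locus tags 6840 matched the ASM294v3 annotation (same tag, upper or lower case), which gave names, lengths, neighbours and distance from chromosome ends. No coordinates are given because that assembly is not the authors' build. Coding sequences were aligned globally with Biopython 1.88, and exact matches of at least 25 bases were sought on both strands.

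The members and lists were chosen with earlier results of these data known. Named genes were the 8 members, set2, overlapping genes and nearest coding neighbours, the called genes of each list or else the 2 with the largest change, and the gene of closest pattern to each member. Other genes of a list named for their role were chosen after their values were seen. Alternatives were quantile normalization, median centring, no trend, other filters, a raised floor, an added constant, a replicate block and each library left out.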

Additional observations from a re-analysis of the deposited data

How the results depend on the processing

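The log2 change of all 8 members kept its sign in all 96 combinations of member and alternative. In most of these the sign could not have turned. Fits without a trend, with another filter or with a replicate block give the estimate of the main fit. For the 7 members whose groups do not overlap, leaving out a library cannot turn the sign. The calls of ght3 and ght7 held in all of theirs, with log2 changes of 2.99 to 3.41 and 4.41 to 4.86. The number of genes called, 951 at first, was 602 by limma without a trend (499 higher, 103 lower), 198 without a filter on low values (177 and 21) and 366 with values raised to 50 (313 and 53). Without each library in turn it was 369 to 574 (324 to 488 higher, 45 to 86 lower). Of the members, 2 were called without a filter and 2 to 4 without single libraries. Without a filter ght4 at 0.71 and ght8 at -1.23 did not pass, nor did ght8 at -1.23 with values raised to 50. The fit without a filter adds genes at the lowest value, and the raised floor sets values under 50 to 50 in the same genes. In both, genes with no spread between libraries enter the shared variance estimate. The log2 changes without single libraries were 0.67 to 0.75 for ght4, -1.47 to -0.98 for ght8 and 0.24 to 1.16 for ght5. Calls were gained for ght1 at 0.74 without a trend and for ght2 at -0.47 under quantile normalization. The causes were not tested. The share of ght2 changed sign per annotated gene length (-0.24 percentage points), under quantile normalization (-0.38) and without single libraries (-1.12 to 2.00). The log2 ratio of ght5 to ght6 ran from -0.15 to 0.95 without single libraries. A fit without 1 library leaves a lone library in a group, assumed to vary like the other group. With the replicate number as a block, 2227 genes passed (1380 higher, 847 lower), among them all 8 members, with ght1 at 0.74, ght2 at -0.37, ght5 at 0.70 (limma adjusted p = 6.86e-07) and ght6 at 0.30. In the same fit 4 of 11 sensing genes and 3 of 10 regulators of glucose repression were lower. Deviations of same-numbered libraries correlated at 0.496 across genes, and titles share a prefix by number, but no label says what the prefix marks, so this fit is given as an alternative.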
